A study of Mus musculus with 48 samples.

Results

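The comparison described here set 8 libraries from Brd1+/- mice given fluoxetine (FLX) against 8 libraries from wild-type (WT) mice given the same drug. They are 16 of the 48 libraries of the series and were chosen by their labels for genotype and treatment, with no measured value used. Every library came from a punch of the amygdala of 1 female mouse, and the labels give the strain as C57BL/6NTac-Brd1 for both genotypes. The other 32 libraries came from both genotypes given vehicle (saline) or imipramine (IMN, 10 mg/kg), 8 per group, and are used only where the genotype difference under FLX is set against theirs. Both groups compared here carried FLX at 5 mg/kg and, by the study's methods, had been injected subcutaneously on each of the behavioural test days, had swum in a forced swim test and were killed about an hour after it as young adults. Brd1+/- mice carried 1 allele in which a block of Brd1 exons had been removed by targeting, in every cell rather than in a chosen cell type, and WT mice were matched to them by litter. Per the study's methods the tissue was taken from the right amygdala with a small punch needle.

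BRD1 is a bromodomain scaffold protein that joins the histone acetyltransferase KAT7 and related enzymes to chromatin and favours acetylation of histone H3 at promoters and enhancers. Fluoxetine blocks the serotonin transporter and is used against depression. The amygdala lies close to the hypothalamus, the striatum, the piriform cortex, the thalamus and the lateral ventricle with its choroid plexus, and each of these has marker genes that are scarce or patchy in the amygdala itself.

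Transcript levels were given as TPM, a unit in which the reads of a gene are scaled by its length and by the sum over the library. Differences are on the scale log2(TPM + 0.1), Brd1+/- minus WT, so that -1 is a fall to about 1/2 of the level, and a gene was called when its limma p, adjusted by Benjamini and Hochberg over all 23635 genes tested, was under 0.05. Between 23464 and 25852 genes were listed above 0 in an FLX library. TPM does not hold the sequencing depth, which is therefore not known here, and a 0 is given here only as a listed value, since the number of reads behind it is not known. Whether the counting used strand is not stated, and 24 of the 41 called genes named by a rule on size, p and lists overlap a gene on the opposite strand, so that reads of such partners could not be told apart.

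Markers of structures next to the amygdala differed widely between libraries of the same group. The hypothalamic peptide genes Hcrt and Oxt were listed at 88.7 and 524 TPM in WT FLX 1, at 1074 and 110 TPM in WT FLX 2, and at 1404 and 199 TPM in WT FLX 3. In WT FLX 7 Oxt stood at 36.4 TPM, while in the remaining 12 libraries Hcrt was listed at 0 and Oxt did not exceed 0.632 TPM. Pmch, which encodes melanin-concentrating hormone of the lateral hypothalamus, reached 3130 TPM in WT FLX 2, 1755 TPM in WT FLX 3 and 111 TPM in WT FLX 1 and at most 9.22 TPM elsewhere. Markers of other structures stood out in some libraries of either genotype. Ttr, the abundant transthyretin of the choroid plexus, was at 8383 TPM in WT FLX 2 and at most 17.3 TPM in the other WT libraries. It was at 27594, 1680 and 507 TPM in Brd1+/- FLX 8, 7 and 4 and at 0.947 to 69.1 TPM in the other Brd1+/- libraries. Ppp1r1b, which marks striatal projection neurons, was at 3834 TPM in Brd1+/- FLX 2 and 1292 TPM in Brd1+/- FLX 5, against at most 966 TPM in WT FLX. Slc6a5, the glycine transporter of glycinergic neurons, was at 60.5 TPM in WT FLX 6 and at most 0.202 TPM in the others. Penk, Camk2a and other genes of the amygdala and its neighbours were present in all 16 libraries, the lowest levels being 57.9 TPM and 158 TPM. In bulk tissue, fewer cells of a type and less RNA per cell cannot be told apart.

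**Figure D1:**
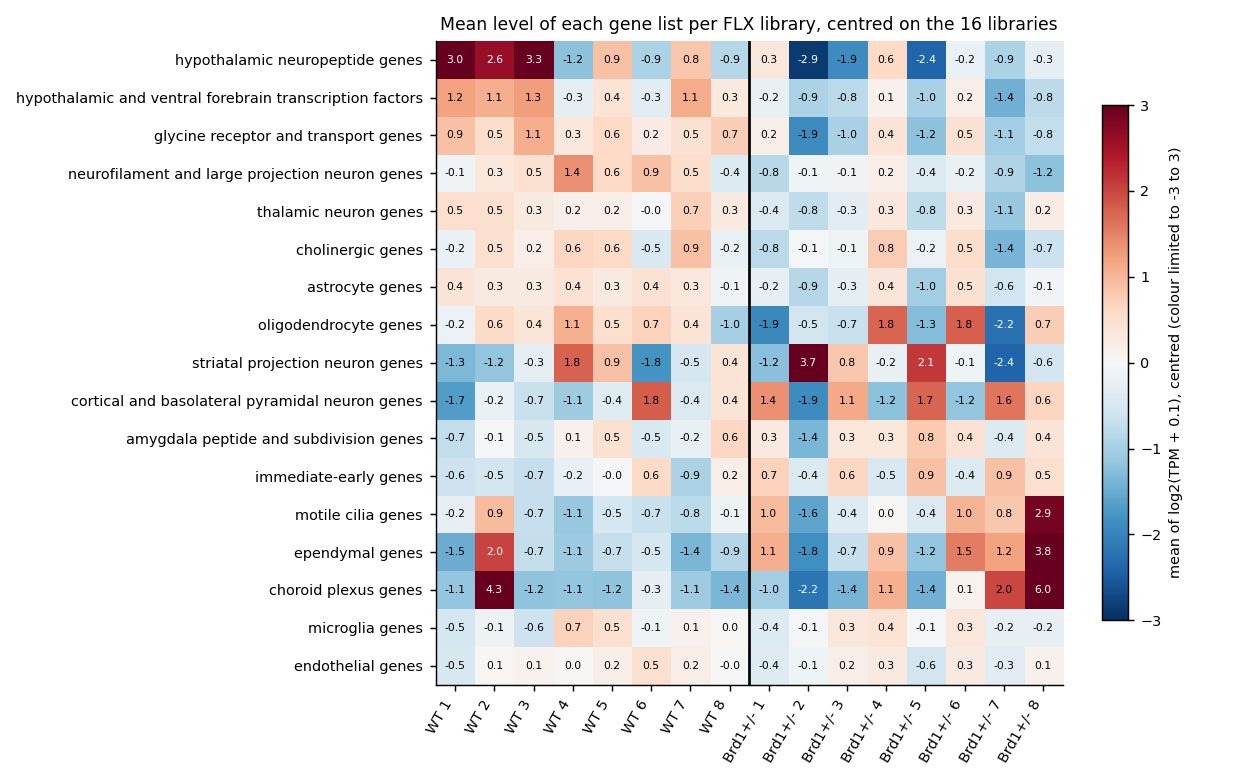
Mean level of 17 gene lists (rows) in the 16 FLX libraries (columns, WT left of the line, Brd1+/- right), as the mean of log2(TPM + 0.1) over the tested members, centred on the 16 libraries, with the value printed in each cell. Hypothalamic peptide genes were high in WT 1, 2 and 3, and choroid plexus genes in WT 2 and in Brd1+/- 7 and 8. Striatal genes were high in Brd1+/- 2 (3.68) and 5 (2.13) and in WT 4 (1.76).

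The targeted gene followed the labels. Brd1 (chr15:88687034-88734233, GRCm38, 15 exons) was listed in WT FLX libraries at 33.8, 31.3, 33.7, 24.9, 32.4, 30.4, 37.7 and 39.3 TPM, and in Brd1+/- FLX libraries at 26.0, 18.0, 25, 19.3, 27.2, 27.1, 22 and 23.7 TPM. All but WT FLX 4, the lowest of its group, lay above every Brd1+/- library. The means were 32.9 ± 4.45 and 23.5 ± 3.49 TPM (SD, n = 8 each), a log2 difference of -0.49 with an exact two-sided permutation p of 0.000777, the smallest value possible with 8 libraries a group being 0.000155. In the fit across all genes its adjusted p was 0.0362, and this call held in 5 of the 16 fits that left out 1 library. The vehicle and IMN mice had log2 differences of -0.45 and -0.68 for Brd1. None of the other 11 genes listed for the acetyltransferase complexes that BRD1 and its relatives build (Brpf1, Kat7, Ing4, Meaf6, Jade1 and others) was called, and the median of all 12 was -0.10, against -0.06 over all genes tested.

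Under FLX most genes called between the genotypes were lower in Brd1+/- than in WT libraries. Of 23635 genes, 364 were called (1.54%), with 325 lower (1.38%) and 39 higher (0.165%) in Brd1+/- FLX. Multi-exon protein-coding genes made up 300 of the 364 calls, or 2.06% of the 14550 such genes tested, with 278 lower (1.91%) and 22 higher (0.151%). The median difference was -0.92 for the genes called lower and 1.58 for those called higher, and 170 of the 364 changed by at least 2-fold, 28 of them upwards. Of the 364, 50 were not protein-coding, 12 of them antisense transcripts. After median-ratio scaling of the libraries 239 genes were called, 187 lower and 52 higher, so that higher calls made up 21.8% instead of 10.7%.

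**Figure D2:**
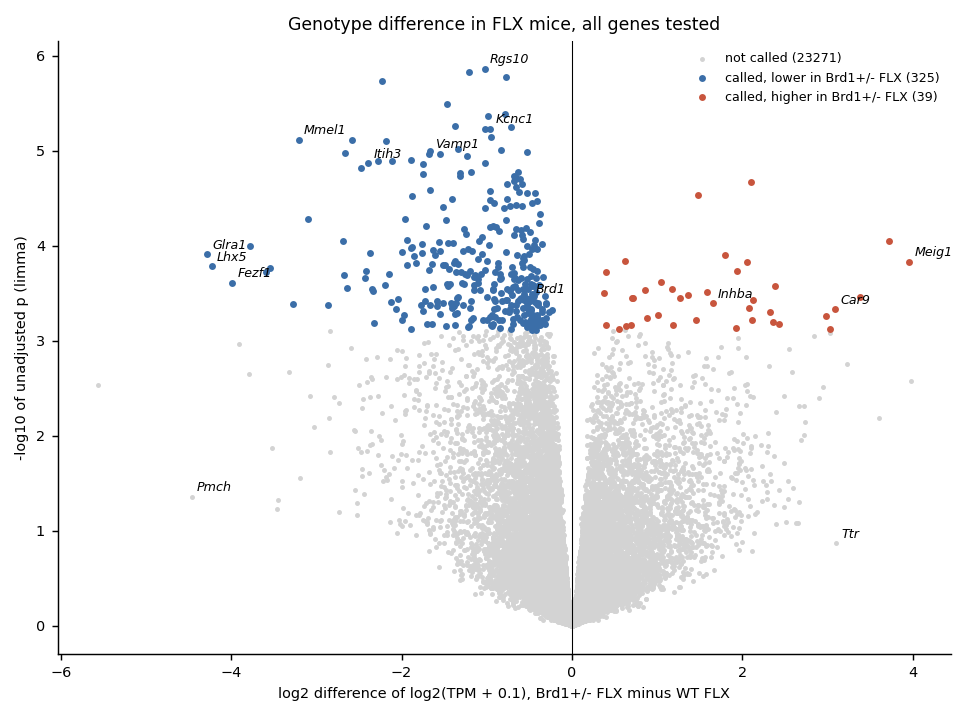
Genotype difference of each of the 23635 genes tested (x axis, log2 scale, Brd1+/- FLX minus WT FLX) against -log10 of its unadjusted limma p (y axis), with called genes in blue (325 lower) and red (39 higher). Most called genes lie left of 0, while Pmch and Ttr have large differences without being called.

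The calls were also counted in fits without some of the libraries described above, or with a term added to the fit. Without the 4 libraries highest in Slc17a6, the glutamate transporter of hypothalamic and thalamic neurons, which were WT FLX 1, 2, 3 and 7, limma called 0 genes (1256 had an unadjusted p under 0.05, and the smallest adjusted p was 0.462). Of the 325 genes called lower, 309 could still be tested among the remaining 4 WT and 8 Brd1+/- libraries. All 309 were still lower, with an unadjusted p under 0.05, and their median difference was -0.66. These libraries had taken part in choosing the genes, so this is no separate support. With 4 WT libraries left, the smaller group and the loss of WT FLX 1, 2, 3 and 7 cannot be told apart. Leaving out 1 library at a time, the count lay between 70 and 490, and it fell by over 1.5 times without WT FLX 7 (70), WT FLX 1 (71), WT FLX 2 (81), WT FLX 3 (83), Brd1+/- FLX 5 (113), Brd1+/- FLX 7 (0.565% of the genes then tested), Brd1+/- FLX 8 (143), Brd1+/- FLX 3 (172) or WT FLX 5 (223). Without the pair highest in Ttr, WT FLX 2 and Brd1+/- FLX 8, 45 genes were called, all lower. With the mean level of the hypothalamic lists as a term in the fit 0 genes were called (1280 at an unadjusted p under 0.05). Those lists hold the called genes Lhx5, Fezf1 and Ebf3. The centred level of the transcription factor list had a median of 0.76 in WT FLX and -0.79 in Brd1+/- FLX. The hypothalamic term therefore takes up part of the genotype difference, which partly fixed this outcome. Another fit took the mean levels for choroid plexus, striatum and oligodendrocytes as terms, and it called 4 genes (0.0169%), all lower. No gene in the lists behind those levels was called, although all 16 oligodendrocyte genes had a negative difference (median -0.58). How much of the genotype difference those terms took up was not tested. In all, 63 of the 364 genes were called in every fit that left out 1 library. Sample codes in the labels were partly mixed with genotype. WT FLX 1 to 5 had codes above every Brd1+/- FLX library, WT FLX 6 and 7 lay among these and WT FLX 8 below. With the code range, high or low, as a term 0.533% of the genes were called. Every called gene had the same sign in both ranges, but the same libraries had chosen these genes. The part of the code range in the calls was not tested.

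**Figure D3:**
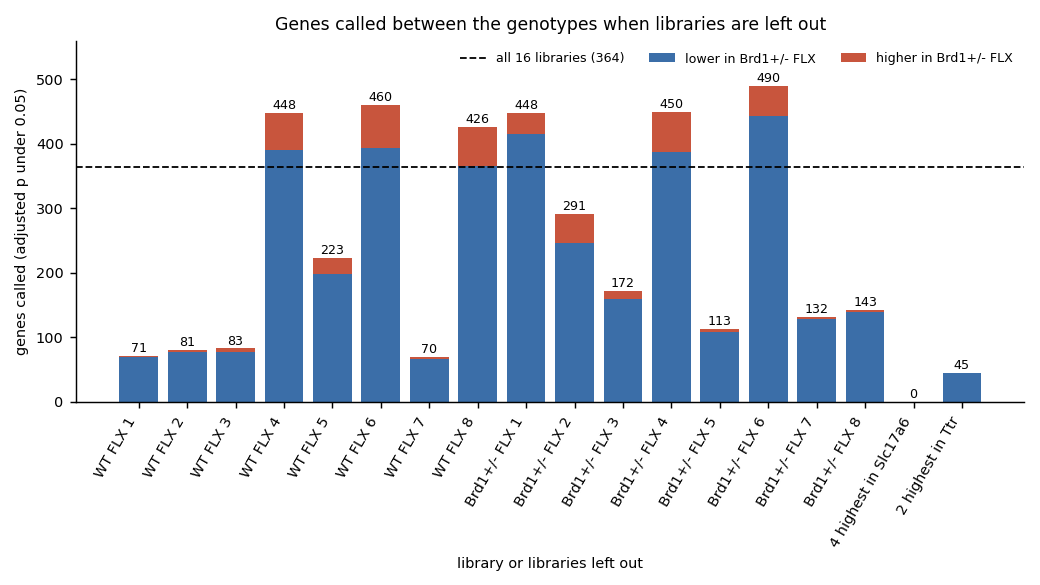
Number of genes called (y axis, adjusted p under 0.05) in fits without the library named on the x axis, and in the last bars without the 4 libraries highest in Slc17a6 or the 2 highest in Ttr, stacked by direction. The dashed line marks the 364 genes called with all 16 libraries, and the counts are lowest where WT FLX 1, 2, 3 or 7 is missing.

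Among the called genes, the largest negative differences were those of a glycine receptor gene, Glra1, and of Lhx5 and Fezf1, transcription factors of the developing forebrain. Glra1 encodes the alpha1 subunit of the glycine receptor, the main inhibitory channel of brainstem and spinal cord (chr11:55514238-55608198). It was listed in WT FLX libraries at 12.2, 11.9, 15.2, 2.18, 7.20, 36.4, 9.79 and 5.21 TPM, and in Brd1+/- FLX libraries at 1.93, 0.182, 0.26, 3.85, 0, 4.10, 0 and 0 TPM. The highest WT value was that of WT FLX 6, the library with Slc6a5, and only WT FLX 4 fell within the Brd1+/- range. The log2 difference was -4.29 ± 0.86 (SE, limma adjusted p = 0.0254), and -3.94 (unadjusted p = 0.0062) without the 4 libraries highest in Slc17a6. It was called in 9 of the 16 fits without 1 library, with adjusted p-values up to 0.0626.

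Glrb, the beta subunit that anchors glycine receptors at synapses, differed less and more evenly. It ranged from 143 to 203 TPM around a median of 168 in WT FLX, and from 99.4 to 147 TPM around 128 in Brd1+/- FLX, with WT FLX 2, 5 and 8 inside the Brd1+/- range (log2 -0.40, limma adjusted p = 0.0372). Of the 7 genes tested for glycine receptors and transport, these 2 were called and all 7 had a negative difference, with a median of -0.98. Over all genes tested 1.54% were called and 13704 of 23635 had a negative difference. Glra2, Glra3 and Glra4, which encode the other alpha subunits, had differences of -0.60, -0.98 and -1.10 with adjusted p-values of 0.41, 0.413 and 0.488.

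Lhx5, a LIM homeodomain factor of the hypothalamic primordium (chr5:120431699-120441223), was at 14.1, 14.6, 10.3 and 11.7 TPM in WT FLX 1, 2, 3 and 7 and between 0.195 and 1.5 TPM in the other 4 WT libraries. It was listed at 0 in 6 of 8 Brd1+/- libraries, the others having 0.538 and 0.222 TPM. The high values therefore belonged to the same 4 libraries that were highest in Slc17a6, and Lhx5 did not pass the filter without them. Fezf1, a zinc finger repressor of forebrain patterning, was at 20.2 and 15.1 TPM in WT FLX 1 and 3, at 0 to 4.71 TPM in the rest of the WT group and at 0 to 0.361 TPM in Brd1+/- FLX. Ebf3, an early B-cell factor of neuronal differentiation, ranged from 0.543 to 7.89 TPM in WT FLX and from 0.0978 to 0.562 TPM in Brd1+/- FLX. Only the highest Brd1+/- value, that of Brd1+/- FLX 6, lay within the WT range. Lhx5 and Fezf1 passed the filter on low values mainly through the WT libraries, where they were high, so their p-values are a description. The differences of Lhx5, Fezf1 and Ebf3 were -4.23 ± 0.88, -3.99 ± 0.86 and -2.34 ± 0.51 (SE, limma adjusted p = 0.0284, 0.0322 and 0.0328).

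Those 3 were the called members of 29 tested transcription factors of hypothalamus and ventral forebrain, of which 25 had a negative difference, with a median of -0.69 (-0.31 without the 4 libraries highest in Slc17a6), beside 1.54% called, 13704 of 23635 negative and a median of -0.06 over all genes. The hypothalamic peptide list had the lowest median of all lists, -1.56 over 8 tested genes, and none of them was called. Their summed level ranged from 21.4 to 3542 TPM in WT FLX and from 9.5 to 124.5 TPM in Brd1+/- FLX, and without the 4 libraries the median was -0.14. Avp (vasopressin) had a difference of -5.56 with an adjusted p of 0.0888, and Pmch of -4.46 with one of 0.283, since both were high in 3 or 4 WT libraries and near 0 in the other WT libraries. The part that hypothalamic tissue had in the called genes was not tested beyond these values.

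The list of neurofilament and large projection neuron genes held 17 tested members, of which 5 were called lower, 12 were not called and 16 had a negative difference. Over all genes tested 1.38% were called lower and 13704 of 23635 were negative. Its median was -0.88, and -0.96 without the 4 libraries highest in Slc17a6. Vamp1, the synaptobrevin of fast-releasing terminals (chr6:125215551-125245964), was at 214, 216, 297, 361, 236, 315, 260 and 119 TPM in WT FLX and at 77.2, 56.8, 97.9, 154.8, 46.6, 123, 66.3 and 41.6 TPM in Brd1+/- FLX. Only WT FLX 8 overlapped the Brd1+/- group. The means were 252 ± 74.3 and 83.0 ± 39.6 TPM (SD, n = 8 each). The log2 difference was -1.67 (limma adjusted p = 0.0113) and was -1.65 without the 4 libraries.

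Kcnc1, the Kv3.1 potassium channel that lets neurons fire at high rates (chr7:46396497-46438704), did not overlap between the groups. It was at 101 to 169 TPM around a median of 135.1 in WT FLX and at 42.1 to 85.8 TPM around 75.8 in Brd1+/- FLX (log2 -0.96 ± 0.15, limma adjusted p = 0.0113). Scn1a (Nav1.1, log2 -0.87), Nefh (neurofilament heavy chain, -1.27) and Ina (alpha-internexin, -0.47) were the other members called, Ina being outside the rule for named genes. Nefh had its highest values in WT FLX 4 and 6, at 140 and 111 TPM. Vamp1 and Kcnc1 were called in every fit without 1 library, Nefh in 8 and Scn1a in 10 of 16.

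**Figure D4:**
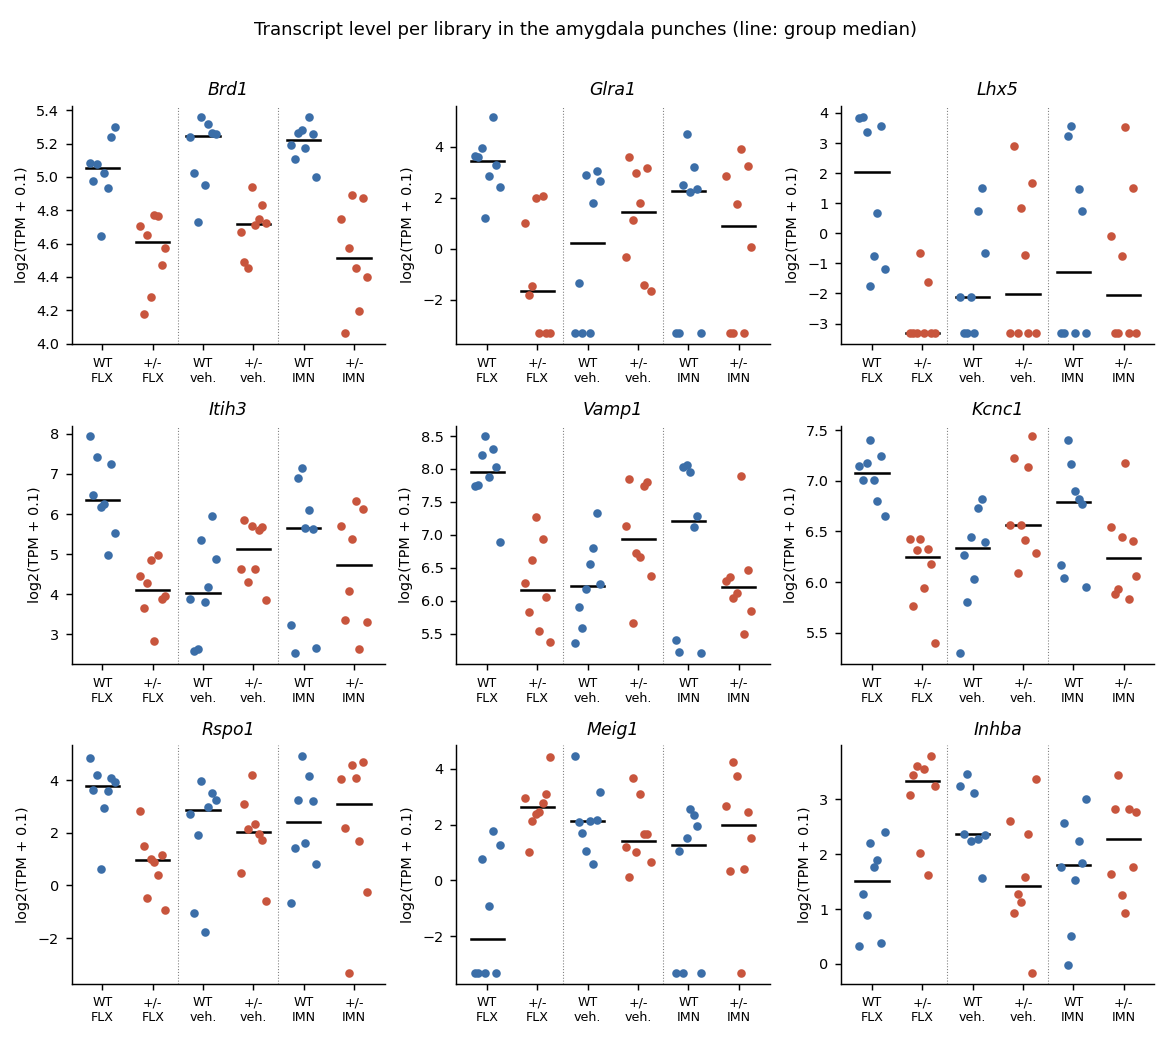
Level of 9 genes (y axes, log2(TPM + 0.1), each panel with its own scale) in each library of the 6 groups, 8 libraries a group, with WT in blue, Brd1+/- in red and a line at the group median. Vamp1, Kcnc1 and Itih3 are lower in nearly all Brd1+/- FLX than WT FLX libraries and, within the FLX groups, Lhx5 is above 10 TPM in WT 1, 2, 3 and 7 alone.

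Of the amino acid transmitter genes 12.5% were called and of the cholinergic genes 8.33%, 1 gene in each list, beside 1.54% over all genes tested. Slc6a11, the GABA transporter GAT-3 of astrocytes, was the only call among 8 amino acid transmitter genes, ranging from 148 to 420 TPM in WT FLX and from 54.8 to 194 TPM in Brd1+/- FLX, where WT FLX 6 and 8 lay within the lower range (log2 -1.45, limma adjusted p = 0.0292). Ache, the enzyme that breaks down acetylcholine, was the only call among 12 cholinergic genes, with medians of 179 and 77.6 TPM (log2 -1.07, adjusted p = 0.0295). Patj, a polarity scaffold listed with thalamic neuron genes, did not overlap, being at 11.3 to 27.2 TPM in WT FLX and at 0.964 to 10.6 TPM in Brd1+/- FLX (log2 -1.99, adjusted p = 0.0254). It was the only call among 13 thalamic genes (7.69%), whose median was -0.62.

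Of the genes named for the size of their difference, several encode secreted proteins. Itih3, a heavy chain that stabilises hyaluronan and is made by astrocytes (chr14:30908572-30923760), was at 245, 88.2, 171, 72.1, 76.3, 31.2, 151 and 46.0 TPM in WT FLX and at 22, 12.5, 19.2, 28.8, 6.97, 31.2, 14.5 and 15.4 TPM in Brd1+/- FLX. The groups met at WT FLX 6 and Brd1+/- FLX 6, which both stood at 31.2 TPM when rounded, without crossing, and the highest levels were in WT FLX 1, 3 and 7. The difference was -2.39 ± 0.40 (SE, limma adjusted p = 0.0113), and -1.62 without the 4 libraries highest in Slc17a6. It was the only call among 10 astrocyte genes, of which 9 were negative with a median of -0.25. Over all genes tested 1.54% were called and 13704 of 23635 were negative.

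Rspo1, a secreted agonist of Wnt signalling, was at 1.46 TPM in WT FLX 4 and at 7.52 to 28.3 TPM in the other 7 WT libraries. In Brd1+/- FLX it was at 0.423 to 2.73 TPM except for 7.08 TPM in Brd1+/- FLX 1 (log2 -2.67, limma adjusted p = 0.0297). Nxph4, a neurexophilin that binds neurexins, had medians of 20.8 and 3.64 TPM (log2 -2.37, adjusted p = 0.0254), with WT FLX 4 and 5 inside the Brd1+/- range. Mmel1, a neprilysin-like peptidase, and Lpo, a peroxidase, were low in both groups, with medians of 2.43 and 0.155 TPM and of 2.36 and 0.192 TPM in WT and Brd1+/- FLX, and both were called in every fit without 1 library (log2 -3.21 and -3.10). Ccer2 (log2 -3.28) and Gm3591 (log2 -2.42) completed the largest falls. Gm3591 belongs to a cluster of near-identical genes on chromosome 14, so its reads may have been shared with copies.

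The genes lower in Brd1+/- FLX with the smallest p-values and a mean of at least 20 TPM were Rgs10, Spire2, Ccdc184 and Map4k2. Rgs10, a regulator of G protein signalling (chr7:128373621-128418758), was at 212, 107, 159, 123, 135.3, 93.3, 137 and 116 TPM in WT FLX and at 66.5, 63.2, 72.3, 75.8, 58.7, 65.0, 70.5 and 48.6 TPM in Brd1+/- FLX. The groups were separated by the gap from 75.8 to 93.3 TPM (log2 -1.03 ± 0.14, limma adjusted p = 0.0109). Spire2, an actin nucleator, was at 18.8 to 29.9 TPM against 11.6 to 16.9 TPM, Map4k2, a stress-activated kinase, at 71.7 to 113 TPM against 38.9 to 65.9 TPM, and Ccdc184 at 21.2 to 48.2 TPM against 7.51 to 19.3 TPM. None of these 4 overlapped between the groups, and all were called in every fit without 1 library. Over all genes tested every Brd1+/- library lay below every WT library for 86 genes (0.364%) and above for 1 (0.00423%), Gm10648, which was listed at 0 in all WT FLX libraries and at 0.1 to 0.561 TPM in Brd1+/- FLX, and 76 and 1 of these were among the calls. Gm10648 passed the filter on low values only through the Brd1+/- libraries, so its separation from WT FLX was fixed by that filter.

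Other called genes, picked after their values had been seen, fell into families whose members mostly stood below the call. Over all multi-exon protein-coding genes tested 2.06% were called. Of 78 potassium channel genes 3 were called lower (Kcnc1, Kcnh2 and Kcna10) and 1 higher (Kcng3), or 5.13%, with a median of -0.01 over the family. Kcnh2, the ERG channel that slows repetitive firing, was at 43.2 to 80.7 TPM in WT FLX and at 21.9 to 39.0 TPM in Brd1+/- FLX, without overlap (log2 -0.98, limma adjusted p = 0.0113). Of 23 calcium channel genes 2 were lower (8.7%), Cacng2 (stargazin) and Cacng7, both of which help AMPA receptors reach synapses. Of 19 ionotropic glutamate receptor genes 1 was lower (5.26%), Grin2d (log2 -1.48, limma adjusted p = 0.0469). Among 28 genes of Wnt ligands, receptors and modulators Rspo1 and Sfrp2 were lower and Wnt1 higher (10.7% called). Wnt1 was at 0.225 to 1.26 TPM in Brd1+/- FLX and at most 0.437 TPM in WT FLX. Lgr5, a receptor of R-spondins, was also lower, at 0.295 to 1.66 TPM against 1.71 to 7.74 TPM without overlap (log2 -1.77, adjusted p = 0.0254).

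Further called genes, likewise picked after their values had been seen, included Sparc, Atp1b2, Peg3, Usp29 and Peg13. Sparc, a matrix glycoprotein abundant in astrocytes and microglia, was at 622 to 1733 TPM in WT FLX and at 167 to 759 TPM in Brd1+/- FLX, with its highest levels in WT FLX 1, 3, 7 and 2 (log2 -1.47, limma adjusted p = 0.0322). Atp1b2, the glial sodium pump subunit, was at 343 to 543 TPM against 209 to 357.2 TPM (log2 -0.68, adjusted p = 0.0122), where WT FLX 8 was the only WT library within the lower range. Peg3 and Usp29, paternally expressed neighbours on chromosome 7, had differences of -0.86 and -1.44 (adjusted p = 0.0443 and 0.0322), and the imprinted noncoding RNA Peg13 had -0.62 with no overlap (146 to 213 TPM against 81.7 to 128 TPM, adjusted p = 0.0138). Peg3 also had its highest levels, 623 and 462 TPM, in WT FLX 1 and 3. Of 37 complex I subunit genes 34 were negative with a median of -0.11 and 2 were called (Ndufb8 and Ndufs1, 5.41%). None of 73 cytosolic ribosomal protein genes was called and their median was -0.04. Over all multi-exon protein-coding genes tested 2.06% were called and the median was -0.08.

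Genes near Brd1 on chromosome 15 were listed because they share the region of the targeted allele. Of 16 tested neighbours 3 were called, all lower, beside 1.38% called lower and 0.364% without overlap over all genes tested. Panx2, a pannexin channel of neurons, was at 56.7 to 82.1 TPM in WT FLX and at 26.4 to 55.5 TPM in Brd1+/- FLX, without overlap (log2 -0.61, limma adjusted p = 0.0364). Trabd, at chr15:89075124-89087077, was at 20.2 to 34.7 TPM against 10.1 to 19.7 TPM, again without overlap (log2 -0.63, adjusted p = 0.0307). Mapk12, the p38 gamma kinase, had medians of 4.90 and 2.30 TPM (log2 -1.37, adjusted p = 0.0416). In vehicle mice the medians of Trabd were 19.2 TPM in WT and 18.6 TPM in Brd1+/-, and those of Panx2 were 58.4 and 53.5 TPM. In IMN mice Trabd was at 12.9 to 29.5 TPM in WT and at 12.4 to 28.0 TPM in Brd1+/-. Panx2 was there at 41.4 to 92.4 and 34.1 to 62.8 TPM, and Mapk12 at 2.57 to 8.87 and 0.504 to 5.79 TPM. Panx2 and Trabd both overlap the antisense gene 1810021B22Rik.

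The higher genes were fewer and mostly of low level. Meig1, needed for sperm development and expressed in ciliated cells (chr2:3409043-3422648), was at 0, 0, 1.58, 0, 0.427, 3.30, 0 and 2.29 TPM in WT FLX and at 7.70, 1.93, 4.23, 5.09, 5.39, 6.78, 8.50 and 21.4 TPM in Brd1+/- FLX. It was listed at 0 in WT FLX 1, 2, 4 and 7 and passed the filter on low values through the Brd1+/- libraries, so its p-value is a description. Only Brd1+/- FLX 2 lay within the WT range (log2 3.96 ± 0.81, limma adjusted p = 0.0277). The highest value was that of Brd1+/- FLX 8, the library highest in choroid plexus and ependymal genes (centred levels of 5.97 and 3.78). WT FLX 2 came next in both lists (4.33 and 2.02), and there Meig1 was listed at 0. Meig1 was the only call among 45 tested genes of motile cilia (2.22%, beside 1.54% over all genes tested). In that list 7 had a negative difference and the median was 0.65 (0.46 without the 2 libraries highest in Ttr), its summed level lying between 138.9 and 379.2 TPM in WT FLX and between 113 and 1121 TPM in Brd1+/- FLX. Ependymal genes had a median of 1.29 over 9 tested, and choroid plexus genes of 0.67 over 20 tested, with no call in either. The part of ventricular lining in the difference of Meig1 was not tested.

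Inhba encodes a subunit of activin A and is switched on by synaptic activity (chr13:16011851-16031621). It was at 1.16, 2.31, 1.76, 4.51, 3.29, 3.62, 1.21 and 5.20 TPM in WT FLX and at 8.39, 10.8, 12.1, 3.95, 11.6, 2.97, 13.7 and 9.33 TPM in Brd1+/- FLX. Brd1+/- FLX 4 and 6 lay within the WT range, and the other 6 above it (log2 1.65 ± 0.38, limma adjusted p = 0.0369). It was the only call among 16 later activity-induced genes (6.25%, beside 1.54% over all genes tested), whose median was 0.31. None of 20 immediate-early genes was called, though 18 had a positive difference, with a median of 0.52 (0.15 without the 4 libraries highest in Slc17a6). Homer1, the most abundant of them, was at 24.9 to 97 TPM in WT FLX and at 36.6 to 165 TPM in Brd1+/- FLX (log2 1.03, adjusted p = 0.139).

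Kcng3, a silent partner of Kv2 channels, had medians of 1.63 and 4.97 TPM (log2 1.45, limma adjusted p = 0.0443), and Nemp1, a protein of the inner nuclear membrane, of 3.85 and 9.94 TPM (log2 1.36, adjusted p = 0.0356). Car9, the hypoxia-induced carbonic anhydrase, was listed at 0 in 6 of 8 WT FLX libraries and in 1 Brd1+/- library. Its highest value, 6.76 TPM, was that of Brd1+/- FLX 8, the library highest in Ttr. Car9 passed the filter on low values mainly through the Brd1+/- libraries, and did not pass it without the 2 libraries highest in Ttr. Tcfl5, Mcemp1 and Mis18a, known from testis, mast cells and centromere assembly, had Brd1+/- medians of 1.58, 1.4 and 7.35 TPM against 0.261, 0.240 and 3.36 TPM in WT FLX. Gm19410 had medians of 17.0 and 3.26 TPM. Pcdhgc5 was higher (log2 1.27) while its neighbour Pcdhgc4, which shares exons with it, was called lower, so the assignment of reads within that cluster is uncertain.

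Of the higher genes with a mean of at least 20 TPM, Necab1, a neuronal calcium-binding protein, had medians of 46.7 TPM in WT FLX and 124.2 TPM in Brd1+/- FLX (log2 1.17, limma adjusted p = 0.0328). It was lowest in WT FLX 1, 3 and 7, and WT FLX 5 and 8 reached the Brd1+/- range with 85.3 and 120.5 TPM. Ctdspl, a small phosphatase of the C-terminal domain family, was at 17.0 to 30.2 TPM against 24.3 to 40.0 TPM (log2 0.63, adjusted p = 0.0275), Zswim6 at 9.51 to 21.1 TPM against 18.3 to 64.0 TPM (log2 1.04) and the pseudogene Gm15899, which lies within Cbfa2t3, at 32.9 to 46.7 TPM against 42.9 to 55.1 TPM (log2 0.40).

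None of the genes listed for the drug's action and for stress was called. Over all genes tested 1.54% were called, so lists this short, here and below, would often hold no call. Of 9 tested genes of monoamine synthesis and transport and 12 serotonin receptor genes none passed, the medians being -0.40 and -0.06. Htr2c, the serotonin receptor of highest level, was at 37.4 to 98.0 TPM in WT FLX and at 24.0 to 120 TPM in Brd1+/- FLX (log2 -0.09 ± 0.29, limma adjusted p = 0.907). None of 14 genes of corticotropin-releasing hormone and glucocorticoid response was called either, and Sgk1, which glucocorticoids induce, had means of 222 ± 83.0 and 240 ± 176 TPM (SD, n = 8 each). Neither were any of 22 amygdala, 17 cortical and 12 striatal marker genes called, with medians of 0.34, 0.65 and 0.65 that fell to 0.16, 0.14 and -0.14 without the 4 libraries highest in Slc17a6. Lists of oligodendrocytes (16 tested, all negative, median -0.58), their precursors, microglia, endothelium, fibroblasts, red blood cells, mitochondrial mRNAs, nuclear noncoding RNAs and steroid receptors held no call.

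The genotype difference under FLX was set against that under the other treatments by an interaction test. Against vehicle, 455 of 26657 genes were called (1.71%), among them 156 of the 364 genes called under FLX, and 346 of the 364 had an unadjusted p under 0.05. The FLX libraries that chose these genes are part of that test, so these shares are a description. The sample codes in the labels put all vehicle libraries in a range of their own, apart from the FLX and IMN libraries, so that range and the vehicle treatment cannot be told apart. In vehicle mice alone, where 172 genes were called (0.708%), none of the 358 FLX calls that could be tested was among them, and those lower under FLX had a median difference of 0.18. Of the 41 called genes named by the rule, 32 had the opposite sign in vehicle and 19 differed by the interaction test, with Vamp1 (-2.42, limma adjusted p = 0.00334), Lpo (-4.70, adjusted p = 0.00336) and Itih3 (-3.26, adjusted p = 0.00528) at the smallest adjusted p. Against IMN 0 of 26162 genes were called (1115 at an unadjusted p under 0.05), and the smallest adjusted p was 0.282. In IMN mice alone 4 genes were called (0.017%), none of them a gene called under FLX. The genes lower under FLX had a median difference of -0.23 in IMN mice, and 35 of the 40 named genes that could be tested had the same sign.

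**Figure D5:**
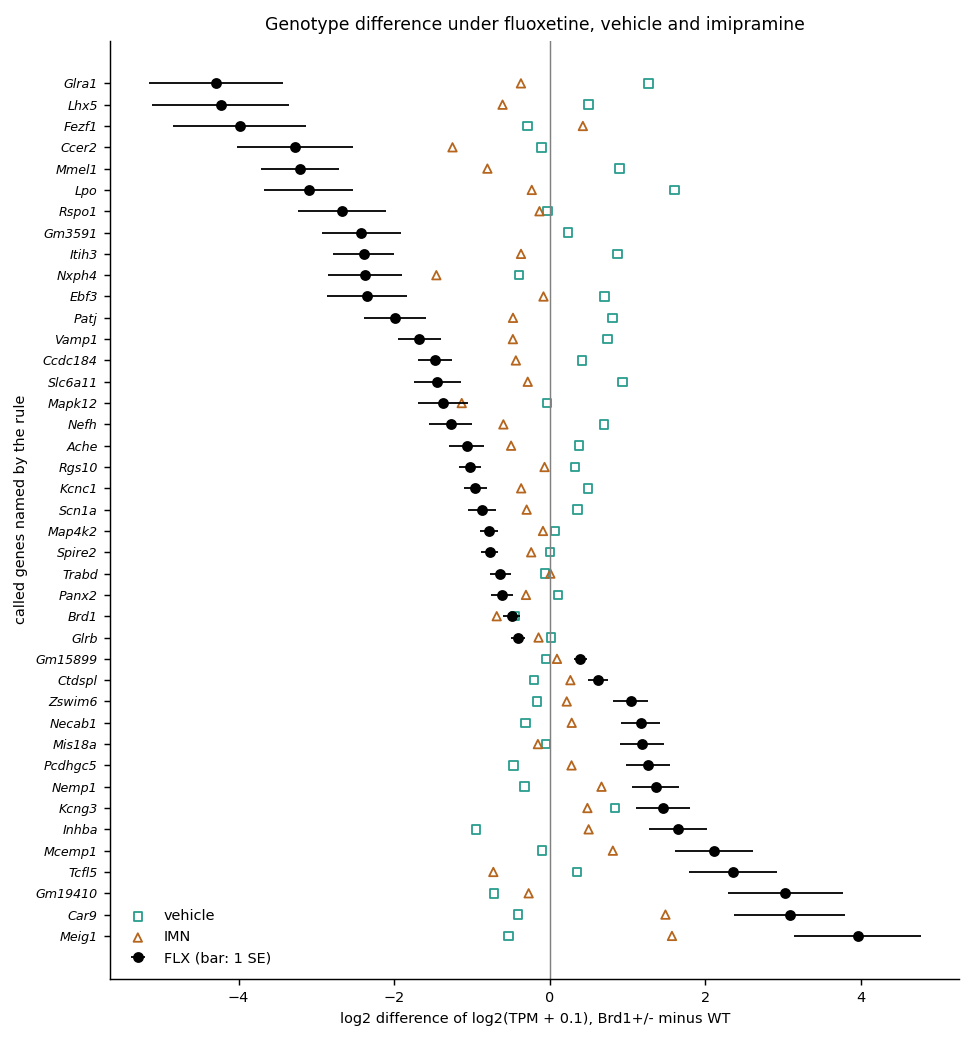
Genotype difference (x axis, log2 scale, Brd1+/- minus WT) of the 41 called genes named by the rule (y axis) under FLX (circles with bars of 1 SE), vehicle (squares) and IMN (triangles, absent for Gm3591). In vehicle 32 of them lie on the other side of 0 from FLX, and Brd1 is lower under all treatments.

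Of the 6 groups, WT FLX had the highest mean for nearly all genes called lower. For the 325 genes called lower, the group mean of WT FLX lay above that of WT vehicle for 323, of WT IMN for 321, and of all 3 Brd1+/- groups for 325, with medians of -0.67 (WT vehicle), -0.40 (WT IMN), -0.47 (Brd1+/- vehicle), -0.67 (Brd1+/- IMN) and -0.92 (Brd1+/- FLX) relative to it. Such genes were chosen for being high in WT FLX, which fixes part of this order. Within WT FLX the median deviation of these genes from the mean of the 16 libraries was 0.46 to 0.67 in WT FLX 1, 2, 3 and 7 and 0.16 to 0.31 in the other 4, and within Brd1+/- FLX it ran from -0.76 in Brd1+/- FLX 2 to -0.13 in Brd1+/- FLX 6.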

How the data were processed

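RNA was sequenced from amygdala punches of female mice, 1 library a mouse. The submitters' processing notes name FastQC, Trimmomatic, HISAT2 2.1.0, StringTie 1.3.4 and GRCm38, and the deposited file holds the TPM values that the authors made. TPM sums to nearly the same total in each library (999587 to 999772), and since it does not hold the sequencing depth no counting interval was computed.

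From these values log2(TPM + 0.1) was taken for genes with at least 0.1 TPM in at least 8 of the 16 libraries. A gene near 0 in 1 group could pass this filter through the other group alone. Among others, Glra1, Lhx5 and Gm3591 did so through WT FLX and Meig1 through Brd1+/- FLX. Genotypes were compared with limma 3.58.1 (R 4.3.3; lmFit, eBayes with trend, no covariate) and Benjamini-Hochberg adjustment. Interactions came from fits of 4 groups, and Brd1 was also given an exact permutation test over 12870 arrangements. Gene names and positions came from GENCODE M21, in which 52489 of 52636 identifiers were found. The fitting steps were tested on simulated data in which genes varied independently. Of 200 genes changed, 180 were called (97% of those changed 4-fold and 82.8% of those changed 2-fold). There were 20 false calls beside them, and 0 calls where no gene was changed.

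The genes named were Brd1, Glra1 and Meig1, the 10 called multi-exon coding genes of largest difference in each direction (with a group mean of 1 TPM or more), the 4 of smallest p in each direction (20 TPM or more), and in each of the gene lists up to 4 called members or else the most abundant. The members and lists were chosen with earlier results of these data known. The fits without libraries high in Slc17a6 or Ttr were added after seeing the data. Other alternatives changed the pseudocount, filter, scaling, variance model, covariates and libraries. A gene that met the rule is not reported here.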

Additional observations from a re-analysis of the deposited data

Results flagged for a closer look

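For the 60 named genes, each FLX group of 8 libraries was checked for a library far from the other 7, which chance gives in about 1 group in 20, and 9 were found. In WT FLX, Rspo1 was lowest in WT FLX 4 (1.46 TPM) and Vamp1 in WT FLX 8 (119 TPM). WT FLX 6 was lowest for Ache (68.8 TPM) and stood apart for Hbb-bs, a haemoglobin gene (311 TPM). WT FLX 2 stood apart for Ttr (8380 TPM) and for the ependymal gene Rarres2 (28.4 TPM). In Brd1+/- FLX, the library numbered 8 stood apart for Scn1a (17.3 TPM) and Igf2 (474 TPM), and the library numbered 5 for Trabd (10.1 TPM).

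The FLX libraries that chose the named genes are part of the interaction test against vehicle, so its p-values are a description. The sample code range of the vehicle libraries cannot be told apart from their treatment. The genotype difference under FLX differed from that under vehicle by the interaction test for 19 named genes. In the positive direction these were Meig1 (4.49 on the log2 scale, limma adjusted p = 0.0177), Inhba (2.60, adjusted p = 0.0163), Pcdhgc5 (1.73, adjusted p = 0.00901) and Nemp1 (1.69, adjusted p = 0.0459). Among genes of large projection neurons they were Vamp1 (-2.42, limma adjusted p = 0.00334), Nefh (-1.97, adjusted p = 0.00949), Kcnc1 (-1.45, adjusted p = 0.00535) and Scn1a (-1.22, adjusted p = 0.0144). Transmitter genes were Slc6a11 (-2.38, limma adjusted p = 0.0123) and Ache (-1.45, adjusted p = 0.0411). The remaining genes were Lpo (-4.70), Mmel1 (-4.11), Itih3 (-3.26), Ebf3 (-3.05), Patj (-2.80), Ccdc184 (-1.89), Rgs10 (-1.35), Map4k2 (-0.85) and Spire2 (-0.78), with limma adjusted p-values of 0.00336, 0.0106, 0.00528, 0.0497, 0.0285, 0.00878, 0.00703, 0.00767 and 0.0257.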

How the results depend on the processing

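Brd1 kept its direction in every setting run, between -0.413 and -0.542. The share of tested genes that was called, 1.54%, moved to 3.96% with array weights, 0.901% without a variance trend, 1.01% after median-ratio scaling, 0.669% without a filter on low values (224 genes), 0.104% in one fit of all 48 libraries (29 genes), 0.533% with the sample code range as a term, 0.0169% (4 genes) with striatal, oligodendrocyte and choroid plexus scores and 0% (0 genes; 1280 at an unadjusted limma p under 0.05) with the hypothalamic score. It was 0.195% without the libraries highest in Ttr and 0% (0 genes; 1256 at an unadjusted p under 0.05) without those highest in Slc17a6. Leaving out 1 library gave 0.299% to 2.09%. No called named gene reversed in any setting. For the difference from vehicle, 1.71% (455 genes) became 1.28% (259 genes) with a filter of 1 TPM, while the difference from IMN called 0 genes in every setting run. With the replicate block 0.195% (46 genes) were called, 44 of them shared with the 364, and 330 genes in the comparison with vehicle. The numbers did not pair the libraries, since correlations of same-numbered libraries ran from -0.139 to 0.125. The cause of these shifts was not tested, and without depth no limit can be set for low genes.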
